A study of Homo sapiens with 6 samples.

Results

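The licensing genes described here are CDT1, GMNN, CDC6, ORC1 and the helicase genes MCM2, MCM3, MCM4, MCM5, MCM6 and MCM7, 10 of the 19402 genes in the count table. They were taken by gene name, and all 10 were counted deeply enough to be among the 13388 genes tested. CDT1 was selected on its measured log2 fold change and adjusted p, as 1 of the few genes higher in the libraries labelled IRF1-KO, and the other 9 were added for their role with those results known. The comparison that chose CDT1 is the only one the study allows, so the values of the group are a description and carry no test of their own.

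Messenger RNA, purified on poly-T beads, was sequenced from CFPAC1 cells, an established human line of pancreatic ductal adenocarcinoma, grown in IMDM with serum and not treated further. The IRF1-KO group was 3 libraries, each from a pool of clones isolated by dilution after infection with lentiCRIPSv2 (so spelled in the labels) carrying wt Cas9 and a guide RNA against IRF1, the gene of an interferon-induced transcription factor. The WT group was 3 libraries from pools of clones isolated the same way after infection with the lentiCRIPSv2 plasmid, with no guide named in the labels, so both groups had been infected and cloned. How many clones a pool held, and whether pools were grown on separate occasions, is not given, so the p-values speak only for the variation among these pools, which may be technical. The comparison asked how transcription differed between IRF1-KO and WT clones of a low-grade pancreatic cancer line.

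Origin licensing prepares DNA for a single round of replication. The origin recognition complex, of which ORC1 is the largest subunit, binds DNA and recruits the ATPase CDC6, and CDT1 then brings in the ring of MCM2 to MCM7, the helicase that later unwinds the origin. Geminin, the product of GMNN, binds and inhibits CDT1 from S phase to mitosis, and CDT1 protein is also destroyed once replication has begun, which prevents a second round from the same origin. Many licensing genes are transcribed in late G1 under E2F transcription factors. The counts measure transcripts only, not these proteins, and in bulk RNA a change in the share of cells in a cell cycle phase cannot be told apart from a change in RNA per cell.

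The promoters below are shown because they hold what most of these genes share outside the coding sequence, E2F-type letters close to the start site. Each stretch is the 150 bases before the annotated start in the RefSeq table (GRCh38.p14), written 5′ to 3′ on the strand of the gene, with E2F-type letters in capitals. These were the motif TTTGGCG and 3 variants, the first being TTTCGCG, the next of them TTTCCCG and the last of them TTTGCCG, each searched on both strands. CDT1 lies at chr16:88803639-88803788 on the plus strand, CDC6 at chr17:40287729-40287878 plus, the second of 2 GMNN starts at chr6:24775263-24775412 plus, MCM6 at chr2:135876444-135876593 minus and ORC1 at chr1:52404424-52404573 minus.
CDT1: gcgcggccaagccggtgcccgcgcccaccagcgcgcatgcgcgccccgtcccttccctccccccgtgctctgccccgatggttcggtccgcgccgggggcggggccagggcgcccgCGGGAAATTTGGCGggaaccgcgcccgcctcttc
CDC6: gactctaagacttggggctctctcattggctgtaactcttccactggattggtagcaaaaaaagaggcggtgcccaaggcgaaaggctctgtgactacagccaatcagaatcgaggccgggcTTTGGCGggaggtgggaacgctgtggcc
GMNN: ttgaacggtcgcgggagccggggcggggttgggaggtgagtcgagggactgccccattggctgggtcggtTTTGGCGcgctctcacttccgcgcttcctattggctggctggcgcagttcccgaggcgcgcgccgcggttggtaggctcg
MCM6: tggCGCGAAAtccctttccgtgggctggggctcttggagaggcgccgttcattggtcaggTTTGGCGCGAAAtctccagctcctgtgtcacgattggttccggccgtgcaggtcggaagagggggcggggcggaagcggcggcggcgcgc
ORC1: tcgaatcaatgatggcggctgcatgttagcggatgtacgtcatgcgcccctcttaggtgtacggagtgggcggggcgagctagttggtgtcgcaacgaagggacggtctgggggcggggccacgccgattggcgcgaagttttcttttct

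In CDT1 the letters stood as an adjoining pair, from base -34 to -28 on the opposite strand and from -27 to -21 on the strand of the gene, counted back from the start. CDC6 had a match from -28 to -22 and another past the start, from 8 to 14. MCM6 held matches in which the letters of both strands overlap. ORC1 had none of these exact letters, though its attggcg differs from TTTGGCG only in the first letter. The stretches of MCM2, MCM3 and MCM7 are not printed because the table's exons reach into them.

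Promoter windows of 300 bases, 250 before and 50 after the start, were found for 8 of the 10 genes, all but MCM4 and MCM5. Of these 8 genes, 7 held E2F-type letters (all except ORC1), against 13.5% of the 15218 genes of the table that had a window. The CCAAT box, CCAAT on either strand, stood in 6 of the 8 but in neither CDT1 nor MCM2, against 42.5% of all genes. The GC box GGGCGG stood in 6 of the 8 (65.1% of all genes). The letters TTTGAA, known as the CHR element of genes active in G2 and mitosis, stood in 0 of the 8 (15.9% of all genes). IRF-type letters, GAAA and a second GAAA with 2 bases of any kind between them, also stood in 0 of the 8, against 4.21% of all genes. A match is a match of letters and shows no binding, and its absence speaks only for these windows and these exact letters. CDT1 therefore shared its E2F-type letters with the group and differed from most of it in having no CCAAT box.

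Total counts ranged from 16413682 to 28258075 in IRF1-KO libraries and from 18394715 to 21003927 in WT libraries. IRF1 itself had 117, 123 and 132 CPM in IRF1-KO replicates 1 to 3 and 87.3, 91.3 and 82.6 CPM in WT replicates 1 to 3. These averaged 124 ± 7.52 CPM in IRF1-KO and 87.1 ± 4.35 CPM in WT (SD, n = 3 each), where CPM is the count scaled to library size with TMM factors. The libraries labelled IRF1-KO were all above those labelled WT for this gene, at a log2 fold change of 0.51 ± 0.10 (SE) and an edgeR quasi-likelihood, Benjamini-Hochberg adjusted p of 0.135, while DESeq2 called IRF1 higher in IRF1-KO at an adjusted p of 0.00105. The transcript thus goes against a loss of IRF1 RNA and does not check the edit, whose position is not given in the labels, and IRF1-KO means the libraries so labelled throughout. Of 10 ductal epithelial markers, 9 were above 1 CPM, and CFTR was below it. Of 14 markers of fibroblasts, endothelium, acinar and islet cells, 4 were above 1 CPM, and CPA1 and INS were at 0 in every library. Of 4 leukocyte markers, CD14 and LYZ were above 1 CPM and PTPRC and CD3E below it. Their sum was lower in IRF1-KO, at 15.4 to 26.6 CPM, than in WT, at 28.02 to 76.1 CPM, without overlap, and its part in the results was not tested.

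CDT1, the loading factor that brings MCM rings to origins, was 2.28 times as high in IRF1-KO as in WT before any correction for GC content. CDT1 (ENSG00000167513.9; GRCh38 chromosome 16, 88803789 to 88809258, plus strand) had 478, 993 and 834 counts in IRF1-KO replicates 1 to 3 and 283, 255 and 257 counts in WT replicates 1 to 3. As CPM, these were 29.1, 34.7 and 31.2 CPM in IRF1-KO and 15.5, 13.9 and 12.4 CPM in WT. The lowest IRF1-KO library was thus well above the highest WT library. The log2 fold change was 1.19 ± 0.14 (SE), a fold of 2.28 with a 95% interval from 1.82 to 2.86. This is the value for which the gene was chosen, at an edgeR quasi-likelihood, Benjamini-Hochberg adjusted p of 0.0335. In that comparison 2 genes, 0.0149% of those tested, were past an adjusted p of 0.05 and higher, and 15 genes, 0.112%, were lower. DESeq2 called 203 genes higher and 129 lower. By log2 fold change CDT1 ranked 140 from the top among the 13388 tested genes. With a correction for GC content 0 genes were higher and 15 lower, and CDT1 was at 0.79 ± 0.18 (SE), short of the threshold.

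The direction of CDT1 did not depend on any 1 library, but the call did. Leaving out each library in turn gave log2 fold changes from 1.12 to 1.27. The adjusted p (edgeR quasi-likelihood, Benjamini-Hochberg) was 0.127, 0.108 and 0.212 without IRF1-KO replicates 1, 2 and 3, and 0.250 without WT replicate 2, all short of the threshold. Without WT replicates 1 and 3 it was 0.0471 and 0.0407.

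**Figure D1:**
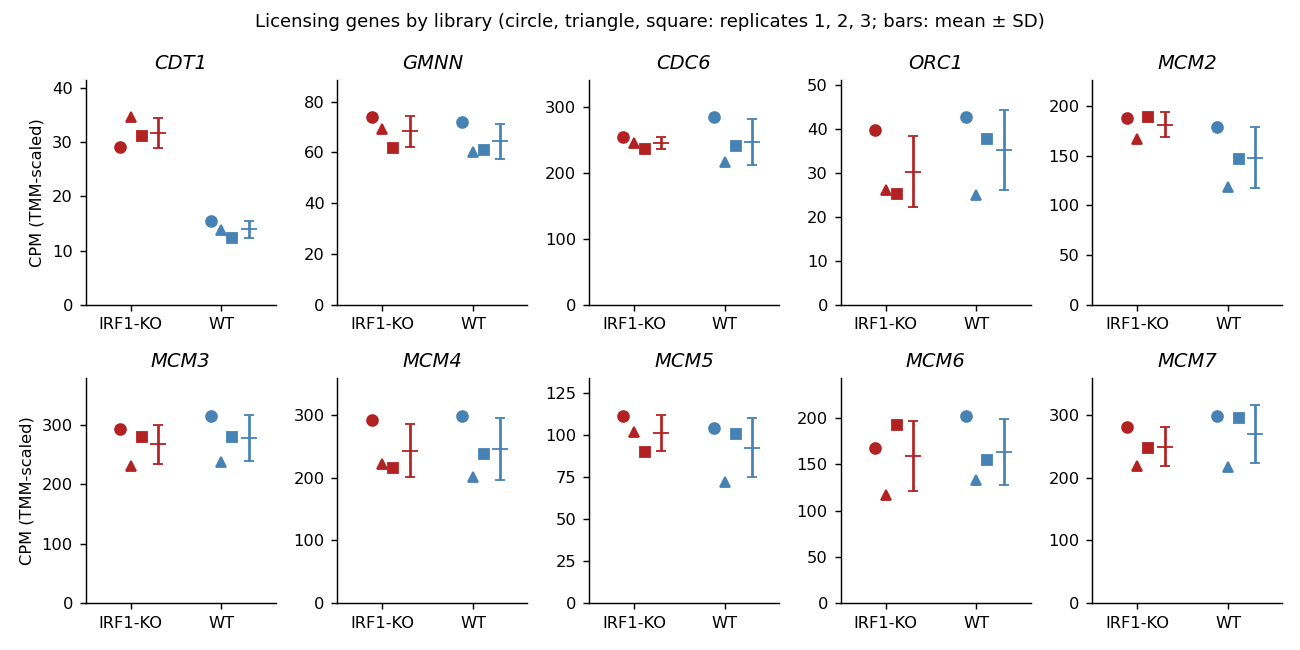
CPM (vertical axes, each from 0, TMM-scaled) of the 10 licensing genes in the 3 IRF1-KO and 3 WT libraries, with mean ± SD beside the points. CDT1 lies between 29.1 and 34.7 CPM in IRF1-KO and between 12.4 and 15.5 CPM in WT, whereas the points of the groups overlap in each of the other 9 genes.

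The transcript of geminin, the inhibitor of CDT1, overlapped between the groups. GMNN (ENSG00000112312.10; chromosome 6, 24774931 to 24786099, plus strand) had 73.8, 69.3 and 61.8 CPM in IRF1-KO and 72.0, 59.9 and 60.9 CPM in WT. The ranges overlapped, and the log2 fold change was 0.09 ± 0.12 (SE), with a 95% interval for the fold from 0.871 to 1.30. The level of CDT1 against GMNN within libraries thus restates the difference for which CDT1 was chosen. Per base of exon, CDT1 was at 35.4%, 44.9% and 45.3% of GMNN in IRF1-KO and at 19.3%, 20.8% and 18.2% in WT, with no overlap. On the log2 CPM scale the difference CDT1 minus GMNN averaged -1.11 ± 0.20 in IRF1-KO and -2.20 ± 0.09 in WT (SD, n = 3 each). The group means of this difference lay 1.10 apart, and 0.68 apart with a correction for GC content.

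The loaders that act with CDT1 showed no difference beyond the spread between libraries. CDC6 (ENSG00000094804.11; chromosome 17, 40287879 to 40304657, plus strand) had 255, 245 and 237 CPM in IRF1-KO and 285, 216 and 241 CPM in WT. Its log2 fold change was -0.01 ± 0.13 (SE), and the WT libraries spanned the IRF1-KO libraries. ORC1 (ENSG00000085840.13; chromosome 1, 52372829 to 52404423, minus strand) had 39.7, 26.0 and 25.2 CPM in IRF1-KO and 42.7, 25.02 and 37.8 CPM in WT. The groups overlapped, the log2 fold change was -0.22 ± 0.25 (SE), and ORC1 had the largest standard error of the 10 genes.

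The 6 subunits of the MCM ring, the helicase itself, all overlapped between the groups. Of the 6, 0 passed the test, which 0.127% of all tested genes passed. MCM2 (ENSG00000073111.14; chromosome 3, 127598410 to 127622436, plus strand) came nearest to a difference, with 188, 167 and 189 CPM in IRF1-KO and 179, 118 and 147 CPM in WT. Its log2 fold change was 0.29 ± 0.16 (SE), short of the threshold (Benjamini-Hochberg adjusted p from edgeR's quasi-likelihood test = 0.668), and WT replicate 1 lay within the range of IRF1-KO. MCM5 (ENSG00000100297.16; chromosome 22, 35400134 to 35425431, plus strand) had 112, 102 and 90.1 CPM in IRF1-KO and 104, 72.2 and 101 CPM in WT, at a log2 fold change of 0.13 ± 0.16. The groups overlapped in both genes.

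The other 4 subunits had negative log2 fold changes smaller than their errors. MCM3 (ENSG00000112118.19; chromosome 6, 52264009 to 52284881, minus strand) averaged 268 ± 32.9 CPM in IRF1-KO and 278 ± 38.9 CPM in WT (SD, n = 3 each), at a log2 fold change of -0.05 ± 0.15 (SE). MCM4 (ENSG00000104738.17; chromosome 8, 47960185 to 47978160, plus strand) averaged 243 ± 42.5 CPM in IRF1-KO and 247 ± 49.4 CPM in WT, at -0.02 ± 0.18. MCM6 (ENSG00000076003.5; chromosome 2, 135839626 to 135876443, minus strand) had 167, 117 and 193 CPM in IRF1-KO and 203, 133 and 155 CPM in WT, at -0.04 ± 0.22. In MCM6 the lowest library of each group was replicate 2. MCM7 (ENSG00000166508.17; chromosome 7, 100092728 to 100101940, minus strand) had 281, 219 and 247 CPM in IRF1-KO and 299, 217 and 295 CPM in WT, at -0.12 ± 0.16. The signs of MCM3, MCM4 and MCM6 turned positive in some of the alternatives, and that of MCM5 turned negative without WT replicate 2. MCM7 shares 392 of its 4386 exonic bases with AP4M1 on the opposite strand, and as the strand setting of the counting is not given in the sources used here, those reads cannot be assigned. Summed over the ring, MCM2 to MCM7 had 1334, 1058 and 1214 CPM in IRF1-KO and 1402, 981 and 1216 CPM in WT.

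Set side by side, CDT1 and the other 9 licensing genes had the following values, from the comparison on which CDT1 was selected. Of the 10 genes 1, CDT1, was past the threshold, for which it was chosen, against 0.127% of all tested genes. It was also the only 1 of the 10 without overlap between groups. Of all tested genes 8.03% had all 3 IRF1-KO values above all 3 WT values and 6.75% all below, so 1 of 10 is near these shares. DESeq2 also called CDT1 and none of the other 9, against 2.48% of all genes. The other 9 had a median log2 fold change of -0.02, with 3 positive and 6 negative values, and all 13388 tested genes also had a median of -0.02. In the fit without GC correction, the 95% intervals of these 9 genes reached at most 0.66 on the log2 scale, in MCM2. That of CDT1, the gene chosen for its value, began at 0.86. With the GC correction CDT1 was at 0.79 ± 0.18 (SE) and MCM2 at 0.30 ± 0.19. Subtracting each of the 9 from CDT1 within each library gave log2 CPM differences without overlap between the groups, larger in IRF1-KO by 0.88 against MCM2 and by up to 1.40 against ORC1. Against the mean of MCM2 to MCM7, CDT1 stood at -2.84, -2.27 and -2.61 in IRF1-KO and at -3.81, -3.44 and -3.92 in WT, a difference of group means of 1.147. Without WT replicate 1 the median of the 9 was 0.14 and without WT replicate 2 it was -0.14, so its sign rested on single libraries.

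**Figure D2:**
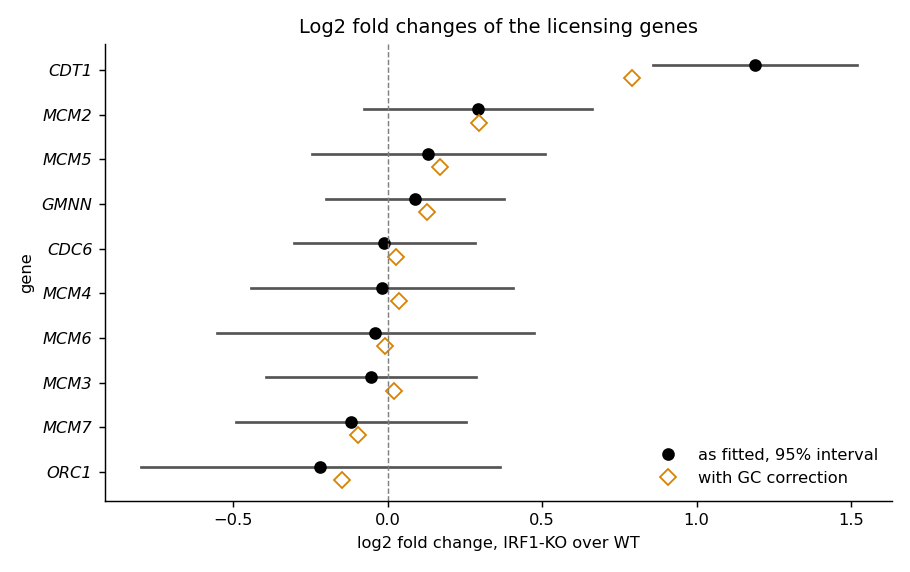
Log2 fold changes (horizontal axis, IRF1-KO over WT) of the 10 licensing genes as fitted, (filled circles) with 95% intervals (lines), and with the correction for GC content (open diamonds). CDT1 is at 1.19 and at 0.79 with the correction, and the other 9 genes lie between -0.22 and 0.29.

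Levels per length put CDT1 at the foot of the group in WT. CPM divided by exon length in kilobases (RPKM) averaged 73.4 ± 9.01 in IRF1-KO and 76.2 ± 10.7 in WT for MCM3, the most abundant (SD, n = 3 each). MCM7 was next at 56.8 ± 7.11 RPKM in IRF1-KO and 61.7 ± 10.6 RPKM in WT, and its range overlapped that of MCM3 in both groups. CDC6 followed at 46.2 ± 1.72 RPKM in IRF1-KO and 46.6 ± 6.56 RPKM in WT. MCM6, MCM2 and MCM4 lay between 34.9 and 38.5 RPKM in IRF1-KO and between 31.4 and 39.6 RPKM in WT, not separable within either group.

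GMNN averaged 27.6 ± 2.45 RPKM in IRF1-KO and 26.0 ± 2.72 RPKM in WT, and MCM5 averaged 13.9 ± 1.49 RPKM in IRF1-KO and 12.7 ± 2.42 RPKM in WT. ORC1 averaged 9.71 ± 2.60 RPKM in IRF1-KO and 11.3 ± 2.92 RPKM in WT. CDT1 averaged 11.5 ± 1.01 RPKM in IRF1-KO and 5.04 ± 0.568 RPKM in WT. In WT every CDT1 value was below every ORC1 value, and in IRF1-KO the ranges of CDT1, ORC1 and MCM5 overlapped. The length used is that of all annotated exons merged, so genes with long alternative exons, such as MCM5 at 7268 bases, are placed lower than a single transcript would be.

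Many of the 9 other genes were high or low in the same libraries, and CDT1 shared this order only in part. All 9 were above their own 6-library means in IRF1-KO replicate 1, and 3 and 3 of 9 were in IRF1-KO replicates 2 and 3. In WT replicates 1, 2 and 3 the counts were 9, 0 and 4 of 9. CDT1 had its lowest IRF1-KO value in replicate 1, where the others were high. In WT its highest value was in replicate 1, as for all 9 others, and its lowest was in replicate 3, not in replicate 2, where all 9 others were below their means.

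Other cell cycle genes were also high in replicate 1 of each group and low in WT replicate 2. Of 22 other G1/S genes, 19, 7 and 16 were above their own means in IRF1-KO replicates 1 to 3 and 22, 0 and 9 were in WT replicates 1 to 3. Of 14 genes of G2 and mitosis, 14, 5 and 11 were above in IRF1-KO and 14, 0 and 5 in WT.

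**Figure D3:**
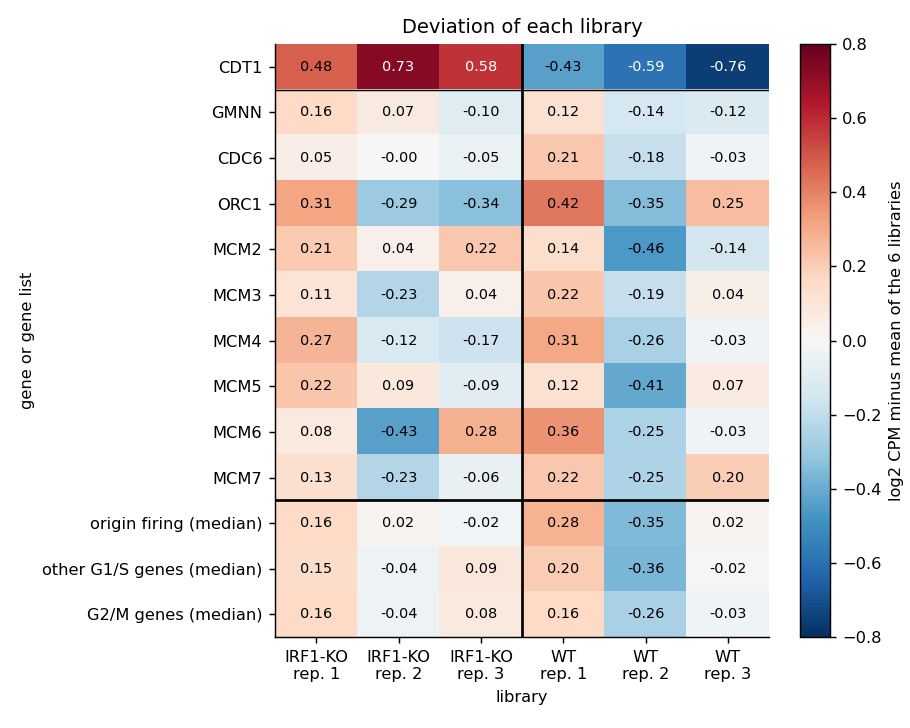
Deviation of log2 CPM from the mean of the 6 libraries (colour and printed value) for the 10 licensing genes and for the medians of 3 cell cycle lists, with IRF1-KO libraries on the left. CDT1 runs from 0.48 to 0.73 in IRF1-KO and from -0.76 to -0.43 in WT, while the other 9 genes are all above 0 in replicate 1 of each group and all below 0 in WT replicate 2.

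The machinery around licensing was set beside these genes in 7 lists of 102 distinct genes, of which 101 were tested, all but the geminin relative GMNC. With edgeR 0 of the 101 genes were past the threshold in either direction, against 0.127% of all tested genes. DESeq2 called 0, against 2.48%. With shares this small, 0 called is not read as a finding about the lists, here or in each list below. An unadjusted edgeR p of 0.05 was passed upward by 2, RECQL4 and PLK1, and downward by 0. Of all tested genes 721 (5.39%) passed it upward and 502 (3.75%) downward. The log2 fold change was positive in 71 of the 101 and negative in 30, with a median of 0.07. Of all 13388 tested genes 6247 were positive and 7141 negative, with a median of -0.02. In 4 genes the 3 IRF1-KO values were all above the WT values and in 3 all below, against 8.03% and 6.75% of all tested genes.

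Of the 8 other loading factors, among them the remaining origin recognition subunits, 0 passed, and their median log2 fold change was 0.00472. ORC2, an origin recognition subunit, was at -0.29 ± 0.16 (SE), LRWD1, which binds the complex, at 0.34 ± 0.24 and the histone acetyltransferase KAT7 at 0.09 ± 0.11. None of these differences was larger than the spread between libraries by the test. With the GC correction LRWD1, whose transcript is 64.2% GC, was at 0.03, ORC2 at -0.24 and KAT7 at 0.13.

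Of 12 genes of CDT1 and geminin turnover, 0 passed, 9 were positive and the median log2 fold change was 0.13. FZR1, the activator of the anaphase-promoting complex in G1 that targets geminin, was at 0.40 ± 0.19 (SE) and the F-box gene FBXO31 at 0.23 ± 0.15. CUL4A, the scaffold of the ligase that destroys CDT1 in S phase, averaged 79.96 ± 2.84 CPM in IRF1-KO and 88.2 ± 0.554 CPM in WT (SD, n = 3 each), without overlap, at -0.14 ± 0.09.

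Of 21 origin firing genes, 0 passed, 14 were positive and the median was 0.04. RECQL4, a helicase gene needed to start replication, came nearest, with 39.8 ± 7.39 CPM in IRF1-KO and 23.03 ± 6.36 CPM in WT (SD, n = 3 each) and no overlap. Its log2 fold change was 0.79 ± 0.23 (SE), at an edgeR quasi-likelihood, Benjamini-Hochberg adjusted p of 0.299. Its transcript is 65.5% GC, and its value was 0.38 with the GC correction. Cyclin A2 (CCNA2) was at 0.32 ± 0.14 and WDHD1, a replisome adaptor, at -0.20 ± 0.12.

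Of the 4 tested MCM and geminin relatives 0 passed, with a median of -0.02. MCM8 was at 0.25 ± 0.21 (SE), MCMDC2 at -0.14 ± 0.20 and MCM9 at -0.13 ± 0.19. Of 20 genes of the E2F and RB axis 0 passed, 12 were positive and the median was 0.06. E2F5 was at -0.39 ± 0.18 and lower in every IRF1-KO library, and the cyclin-dependent kinase inhibitor CDKN1B was at 0.18 ± 0.12 and higher in every one. CDKN1A, the p53-induced inhibitor, was at -0.43 ± 0.31.

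Of the 22 other G1/S genes 0 passed, 19 were positive and the median was 0.10. Thymidine kinase (TK1) was at 0.33 ± 0.15 (SE), the hemimethyl-DNA reader UHRF1 at 0.32 ± 0.17 and the polymerase alpha subunit POLA1 at 0.20 ± 0.15. With the GC correction TK1, whose transcript is 62.8% GC, was at 0.08, UHRF1 at 0.38 and POLA1 at 0.24. Without WT replicate 2, TK1 was at 0.18, UHRF1 at 0.14 and POLA1 at 0.09. Of 14 genes of G2 and mitosis 0 passed, 11 were positive and the median was 0.08. The mitotic kinase PLK1 was at 0.41 ± 0.17, CCNB2 at 0.21 ± 0.14 and AURKA at 0.25 ± 0.19. Without WT replicate 2, PLK1 was at 0.27, CCNB2 at 0.14 and AURKA at 0.06.

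CDT1 has the most GC-rich transcript of the 10, at 64.9%, against 43.1% to 58.1% for the other 9 and a median of 48.5% over tested genes. GC content moved with the group difference over all genes. Median log2 fold changes were 0.19 for the 1520 genes between 60% and 65% GC and 0.52 for the 478 genes over 65%. In the 4 ranges below 60% the medians lay between -0.06 and -0.01. Among the 410 other genes between 64% and 66% GC, the range in which CDT1 lies, the median was 0.40.

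Libraries also differed in this respect within groups. Genes over 65% GC deviated by a median of 0.10, 0.46 and 0.31 log2 CPM in IRF1-KO replicates 1 to 3 and by -0.59, -0.13 and -0.09 in WT replicates 1 to 3. CDT1 kept the same order in IRF1-KO, lowest in replicate 1 and highest in replicate 2, but not in WT, where it was highest in replicate 1. With the GC correction, CDT1 was at 0.79 ± 0.18 (SE) and short of the threshold (Benjamini-Hochberg adjusted p from edgeR's quasi-likelihood test = 0.283), and the difference CDT1 minus the mean of MCM2 to MCM7 was 0.73. The correction takes out any group difference that follows GC content, whatever its source, and what part GC content has in the value of CDT1 was not tested.

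**Figure D4:**
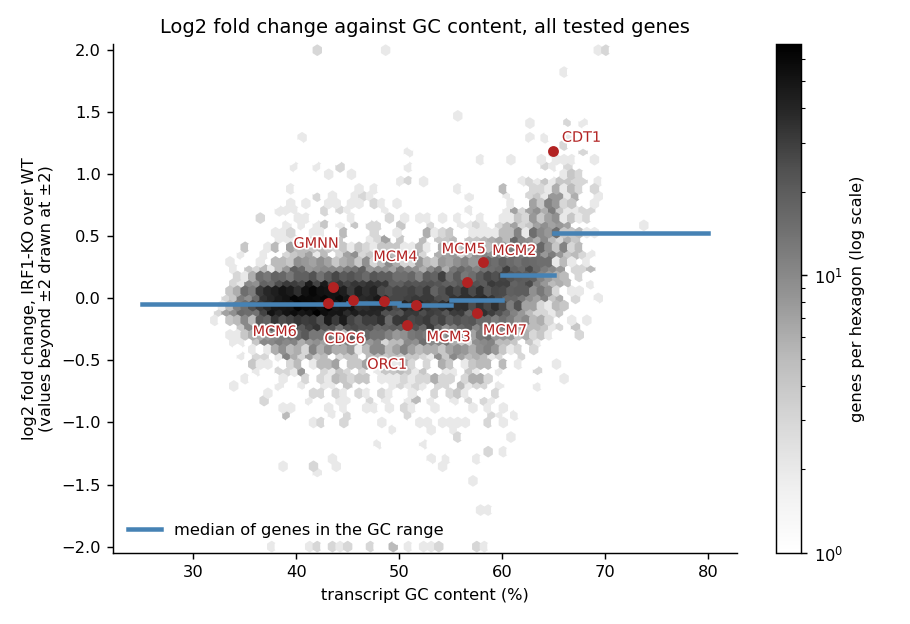
Log2 fold change (vertical axis, IRF1-KO over WT) against GC content of the longest coding transcript (horizontal axis, %) for the tested genes with a GC value, as a density of hexagons, with the median of each GC range (lines) and the licensing genes (points). The medians are 0.19 and 0.52 in the 2 highest ranges, and CDT1, at 64.9% GC and 1.19, stands above both lines. At or above 1.19 were 23 of the 1520 genes between 60% and 65% GC, CDT1 among them, and 51 of the 478 genes over 65%.

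The genes whose profile over the 6 libraries was most like that of CDT1 were looked for among 10986 tested genes with a mean of at least 5 CPM. Likeness was the root mean square difference of log2 CPM after each gene was centred on its mean. The nearest was the splicing factor gene SF3A2 (0.17), then the Wnt receptor gene FZD2 (0.18), CTU2, which acts in tRNA thiolation (0.20), the CDK1-inhibiting kinase gene PKMYT1 (0.20) and CYBA, an NADPH oxidase subunit (0.20). Their higher values in IRF1-KO follow from this choice and are no finding. Their transcripts were 61.3% to 66.6% GC. CTU2, PKMYT1 and CYBA lie on chromosome 16, as CDT1 does, and CTU2 and CYBA lie within 1000 kb of it. PKMYT1, for example, averaged 27.2 ± 2.08 CPM in IRF1-KO and 12.7 ± 1.52 CPM in WT (SD, n = 3 each). The other licensing genes lay at 0.48 for MCM2 to 0.78 for ORC1 by this measure, where MCM2 would rank 764, GMNN 2318, MCM5 2545, CDC6 4129 and ORC1 9740 among the 10986 genes.

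Of the 6 nearest tested neighbours of CDT1 on chromosome 16, 4 had all IRF1-KO values above all WT values, and 0 passed the edgeR test. Such a separation was seen in 8.03% of all tested genes and in 24.8% of chromosome 16 genes beyond 1000 kb of CDT1. APRT, adenine phosphoribosyltransferase, lies on the opposite strand, with its 3′ end 81 bases beyond the annotated end of CDT1 and no exonic base shared. It averaged 77.9 ± 5.28 CPM in IRF1-KO and 46.1 ± 3.22 CPM in WT (SD, n = 3 each), without overlap. Its log2 fold change was 0.76 ± 0.11 (SE), short of the threshold (Benjamini-Hochberg adjusted p from edgeR's quasi-likelihood test = 0.0663), and DESeq2 gave an adjusted p of 2.86e-06. On the other side the mechanosensitive channel gene PIEZO1 was at 0.54 ± 0.17, CTU2 at 0.93 ± 0.18 and the ubiquitin ligase gene RNF166 at 0.74 ± 0.16, each without overlap between groups. Beyond APRT, the lysosomal sulfatase gene GALNS was at 0.16 ± 0.20 and TRAPPC2L at 0.22 ± 0.15, with overlap. These neighbours are 56.9% to 64.3% GC. With the GC correction APRT was at 0.47, PIEZO1 at 0.18, CTU2 at 0.70, RNF166 at 0.62, GALNS at 0.12 and TRAPPC2L at 0.26.

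**Figure D5:**
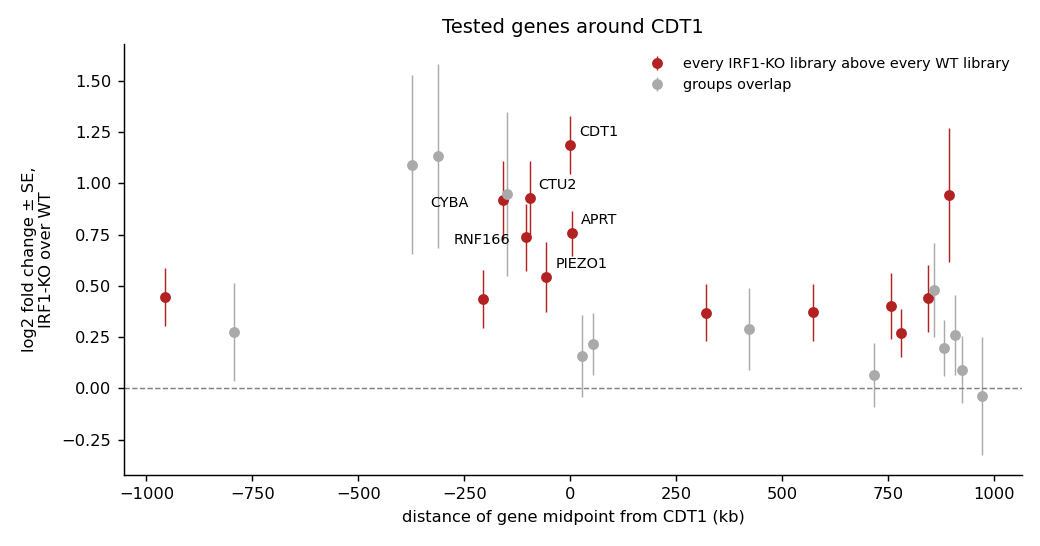
Log2 fold change ± SE (vertical axis, IRF1-KO over WT) of the 27 tested genes within 1000 kb of CDT1 against the distance of their midpoints from it (horizontal axis, kb). CDT1, at 1.19, is the highest point, and in 13 of the other 26 genes all IRF1-KO values are above all WT values. The share over all tested genes is 8.03%.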

How the data were processed

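Poly(A)-selected RNA of 6 libraries of CFPAC1 clone pools was sequenced. The deposited table holds raw counts per gene in the column layout of featureCounts, per the file headers. The tools named in the submitters' processing notes are featureCounts 0.6.1 and edgeR 3.2.2, and the build is GRCh38 (hg38). Aligner, annotation and strand setting were not given in the sources used here. Gene names came from a table of current names (19342 of 19402 identifiers) or GENCODE 29 (56). GC content is that of the longest coding transcript in GENCODE 29, available for 13383 of the 13388 genes tested.

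The comparison was fitted with edgeR 4.0.16 under R 4.3.3 (filterByExpr, TMM factors, robust quasi-likelihood F test, two-sided, Benjamini-Hochberg over all tested genes, threshold 0.05), tested on simulated data. On simulated data it recovered 6%, 58%, 90% and 98% of 50 genes each changed 1.5, 2, 4 and 8 times, with 13 false calls. A change of 1.5 times was thus mostly missed there. The simulated counts were drawn gene by gene, with no trend on GC content and no shift shared by genes. They therefore do not check calls on GC-rich genes. Standard errors follow from the F statistic, and intervals are unadjusted. Log2 CPM used a prior count of 2. The alternatives tried were upper-quartile factors, RLE factors, no filter, a filter of 5 CPM in 3 libraries, DESeq2 1.42.0, limma-voom (limma 3.58.1), the replicate number as a block, a GC correction (natural spline with 5 degrees of freedom, as an offset), both together, and leaving out each library. Between libraries of a group, chi-square divided by its degrees of freedom was 25.8 to 55.0, so no pair agreed within sampling noise.

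The members, the lists, the alternatives and the rule for named genes were chosen with earlier results of these data known. Named were the 10 licensing genes, IRF1, the 3 genes with the smallest p of each list, the 5 genes most like CDT1 and its 3 nearest tested neighbours on each side. The ranges of GC content, the window around CDT1 and the medians by chromosome were chosen after values were seen. The leukocyte list is given without 1 marker, which is not reported here.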

Additional observations from a re-analysis of the deposited data

How the results depend on the processing

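Of 12 main results, 4 changed under some of the 15 alternatives. The count of genes past the threshold, 17, was 31 with no filter on low counts, 332 with DESeq2, 31 with the replicate block, 11 with the replicate block and GC correction, and 3 to 93 without single libraries. CDT1 kept its direction in all 15 but lost its call with the replicate block (log2 fold change 1.19, adjusted p = 0.0743 with edgeR), with the GC correction (0.79), with both (0.82) and without each of 4 libraries in turn (1.12 to 1.27 over all 6). CDT1 minus the mean of MCM2 to MCM7 was 0.73 with the GC correction, with or without the replicate block, and CDT1 minus GMNN was 0.68. The 7 pathway lists had 0 members past the threshold in all 15, and none of the other 9 licensing genes was called in any. Same-numbered libraries of the groups deviated together at correlations of -0.02, 0.25 and 0.06, so the numbers are not shown to pair them. Some values near 0 changed sign. CDC6 was at 0.0272 with upper-quartile factors, 0.0270 with the GC correction, 0.0363 with the replicate block and GC correction and -0.10 to 0.10 without single libraries. MCM3 was at 0.0207 with the GC correction and 0.0214 with the block and GC correction, and MCM4 at 0.0174, 0.0350 and 0.0403 in the same 3 settings as CDC6. Without single libraries, values ran from -0.15 to 0.0477 for MCM3, -0.15 to 0.15 for MCM4, -0.0191 to 0.23 for MCM5, -0.20 to 0.14 for MCM6, -0.30 to 0.0298 for MCMDC2 and -0.22 to 0.00206 for MCM9. With 3 libraries a group, the intervals of the other 9 licensing genes leave room for folds from 0.575, in ORC1, to 1.58, in MCM2.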

Other observations

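Positive log2 fold changes extended over the region around CDT1 on chromosome 16. Of the 26 other tested genes within 1000 kb, 25 had a positive log2 fold change, with a median of 0.42, and in 13 all IRF1-KO values were above all WT values, as in 8.03% of all tested genes. CYBA was at 0.92 ± 0.19 (SE), ZC3H18 at 0.44 ± 0.14 and CHMP1A at 0.44 ± 0.16, whereas FANCA was at -0.04 ± 0.29. The median GC content of these genes was 61.1%. With the GC correction their median was 0.30 and 25 of 26 were positive, with CPNE7 at -0.01 in place of FANCA as the negative value. SPATA33 was then at 0.56 and RPL13 at 0.46.

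The rest of chromosome 16 lay in the same direction by less. Of its 577 other tested genes, 437 were positive, with a median log2 fold change of 0.14, and 438 were positive with the GC correction, with the same median of 0.14. In 143 of the 577 (24.8%) all IRF1-KO values were above all WT values, and in 12 they were all below. Among 23 chromosomes (1 to 22 and X), chromosome 16 had the second highest GC-corrected median at 0.15, after chromosome 20 at 0.16, and chromosome 14 the lowest at -0.13. By library, the genes of chromosome 16 deviated by GC-corrected medians of 0.08, 0.09 and 0.08 in IRF1-KO replicates 1 to 3 and of 0.05, -0.16 and -0.12 in WT replicates 1 to 3, so WT replicate 1 lay close to the IRF1-KO libraries. None of the other 9 licensing genes lies on chromosome 16. Shifts in single libraries were also seen on other chromosomes. Chromosome 2, with MCM6, was at -0.26 in IRF1-KO replicate 2 and at 0.20 in IRF1-KO replicate 3. Chromosome 7, with MCM7, was at 0.21 in WT replicate 3. Chromosomes 8, with MCM4, and 22, with MCM5, were at -0.20 and -0.23 in IRF1-KO replicate 3. The part of these shifts in the values of the licensing genes was not tested.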
